A study of Mus musculus with 8 samples.

Results

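Heparan sulfate and chondroitin sulfate are long sulfated sugar chains that are built in the Golgi on serines of core proteins, and the resulting proteoglycans sit on the cell surface or in the extracellular matrix. A shared linker is laid down first, one set of polymerases then makes heparan sulfate and another makes chondroitin sulfate, and sulfotransferases place sulfate groups on the growing chain. The pattern of sulfate decides which growth factors, chemokines and proteases a chain can hold, and in brain vessels such chains are part of the basement membrane that pericytes share with the endothelium.

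The genes of this machinery were examined in primary cultures of wild-type (WT) mouse brain pericytes, the mural cells of capillaries, after 48 h with TGF-β1 (TGFB-1 Treated, 5 μg/mL, n = 4) or with vehicle (n = 4). Members were chosen by a rule on gene symbols, as protein-coding genes for syndecans, glypicans, linker and chain-building glycosyltransferases, sulfotransferases and endosulfatases. Earlier results of these data were known when this set was chosen, so the shares of called members below are descriptions only. The rule found 57 members among the 54532 genes in the count files. Cells were grown out from papain-digested brain, passaged repeatedly and moved to a pericyte medium, and the paper's methods describe 4 isolates given both treatments, while the labels number the cultures 1 to 4 and 5 to 8 without pairing them. Whether the numbered samples came from separate animals is not stated in the labels, so p-values measure the spread between these cultures.

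Levels are in CPM, that is, reads put on a common scale through each culture's total and TMM factor. Of the 57 members, 48 had enough reads to be tested, and the remaining 9 had at most 14 counts in any culture. A member was called when its adjusted p was under 0.05 in edgeR's quasi-likelihood test with Benjamini-Hochberg adjustment, fitted and adjusted across 22544 genes. The libraries held 45255235 to 47651397 counts, and 3 counts were worth 0.0631 to 0.0658 CPM. All 8 genes of a TGF-β response list changed, 7 upwards. Among 9 pericyte markers the summed level was 413 to 434 CPM with vehicle and 568 to 590.7 CPM with TGF-β1, but *Kcnj8*, *Abcc9* and *Vtn*, which mark brain pericytes in tissue, were near 0 in both groups. By count, 2 of the 6 pericyte markers tested rose and 2 fell. *Pdgfrb* rose from 202 ± 5.43 to 291 ± 2.58 CPM (SD, n = 4), and *Cspg4* also rose. *Rgs5* fell from 8.62 ± 0.466 to 2.13 ± 0.245 CPM and *Anpep* from 40.5 ± 3.52 to 30.1 ± 1.40 CPM. *Des*, at 0.685 ± 0.0949 and 0.623 ± 0.0669 CPM, was not called. The endothelial list summed to 389 to 404 CPM with vehicle and 373 to 399 CPM with TGF-β1, nearly all of it from *Cdh5*. *Kdr* was at 17.9 ± 1.59 and 18.6 ± 1.21 CPM, while *Cldn5* and *Emcn* were near 0. Of the 4 endothelial markers tested 1 was called, *Tek*, which fell from 2.71 ± 0.575 to 1.99 ± 0.164 CPM. Leptomeningeal and perivascular fibroblast markers summed to 1773 to 1868 CPM with vehicle and 2632 to 2765 CPM with TGF-β1, mostly from *Col1a1*, which is also on the TGF-β response list and rose from 1587 ± 36.8 to 2525 ± 49.5 CPM (SD, n = 4). Of the 4 fibroblast markers tested 1 rose and 2 fell. The falls were in *Foxd1*, from 129 ± 5.53 to 71.5 ± 5.40 CPM, and in *Dcn*, from 52.1 ± 2.22 to 46.7 ± 1.62 CPM. *Pdgfra*, at 62.5 ± 1.25 and 63.0 ± 1.72 CPM, was not called, and *Lum* and *Slc6a13* were near 0. Astrocyte markers summed to 14.9 to 16.1 CPM with vehicle and 23.4 to 26.4 CPM with TGF-β1. Most of this came from *Slc1a3* (9.74 ± 0.569 and 15.2 ± 1.08 CPM) and *Aldh1l1* (5.16 ± 0.422 and 8.785 ± 0.305 CPM). *Gfap*, at 0.879 ± 0.117 and 0.947 ± 0.21 CPM, was not called, and *Aqp4* was near 0. With vehicle and TGF-β1, microglial markers summed to 2.87 to 3.84 and 4.26 to 5.08 CPM, and oligodendrocyte markers to 3.86 to 5.07 and 5.15 to 5.70 CPM. The part these marker levels play in the results was not tested, and in bulk RNA fewer cells of a type cannot be told apart from less RNA per cell.

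With TGF-β1, 22 members rose and 12 fell, and 14 of the members tested were not called. The called members were thus 34 of 48, or 70.8%, where 41.3% of all genes tested were called. All 34 called members averaged at least 1 CPM. At that level 34 of 40 members were called (85.0%), against 51.1% of all genes, a comparison added after the data were seen. By direction, 20.9% of all genes tested were called higher and 20.3% lower, and 26.2% and 24.9% of those at 1 CPM or more. A log2 fold change of at least 0.5 in size at that level was passed by 11 called members, and by 10.2% of all genes tested. The median log2 fold change of the members tested was 0.12 and the median of its size was 0.30, against -0.01 and 0.18 over all genes. The groups did not overlap in 34 members (37.9% of all genes tested), of which 23 were higher and 11 lower with TGF-β1, where 19.1% and 18.8% of all genes were. *Gpc5* was separated but not called at 5 to 17 counts per culture, and *Chst10* was called although its groups overlapped.

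**Figure D1:**
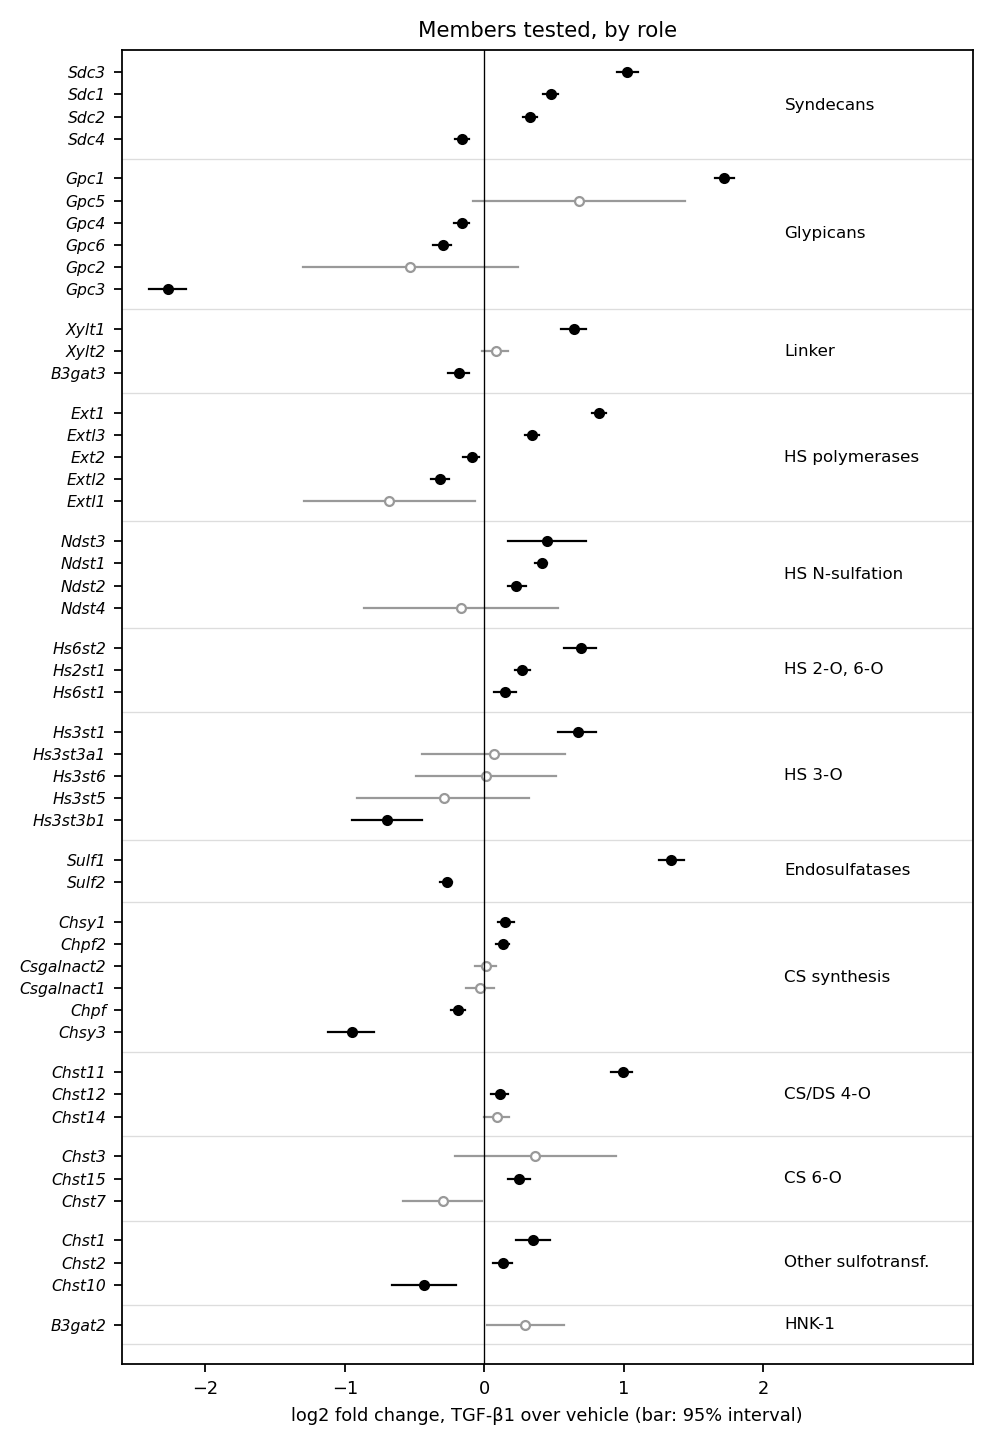
Log2 fold change of the 48 members tested, TGF-β1 over vehicle, grouped by role, with 95% intervals (n = 4 cultures per group). The intervals use a normal quantile and a standard error derived from edgeR's F statistic. Filled black points had an adjusted p under 0.05 and open grey points did not. The range runs from -2.27 for Gpc3 to 1.72 for Gpc1, both glypicans.

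The widest changes were within the glypicans, heparan sulfate core proteins that are tied to the outer membrane by a GPI anchor and act as coreceptors for growth factors. *Gpc1* (ENSMUSG00000034220, chromosome 1, 92831645 to 92860779 of GRCm38) was at 89.6, 88.9, 92.9 and 99.2 CPM in the vehicle cultures and at 283, 316, 305 and 316 CPM in the TGF-β1 cultures. Every treated culture was far above every vehicle culture, a 3.29-fold rise (log2 fold change 1.72, SE 0.04, adjusted p = 2.57e-19 in edgeR's quasi-likelihood test). *Gpc3* (ENSMUSG00000055653, chromosome X, 52272426 to 52613950), whose loss in people causes an overgrowth syndrome, moved the other way. It was at 22.3, 21.5, 21.2 and 22.9 CPM with vehicle and at 4.78, 4.29, 4.78 and 4.36 CPM with TGF-β1. The treated cultures lay in a narrow band below all vehicle cultures, a 4.82-fold fall (log2 fold change -2.27, SE 0.07, edgeR adjusted p = 2.93e-29).

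*Gpc4* lies 107 kb from *Gpc3* on the same strand of chromosome X (52053021 to 52165252) and was the glypican with the highest level per exon length in the vehicle cultures. Its values were 128, 121, 128 and 128 CPM with vehicle and 113, 114, 112 and 111 CPM with TGF-β1. The groups did not overlap, but the fall was small beside that of its neighbour (log2 fold change -0.16, SE 0.03, edgeR adjusted p = 1.60e-06). *Gpc6*, which lies 400.1 kb from *Gpc5* on chromosome 14, fell from 82.6 ± 3.08 to 66.9 ± 2.14 CPM (SD, n = 4), with a log2 fold change of -0.30. *Gpc5* itself and *Gpc2* were scarce, at means of at most 0.345 CPM, and neither was called. Of the exon length of *Gpc2*, 55.6% is shared with another gene on its strand, so its count is uncertain.

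Because genes of different length collect reads unequally, members were compared in level only as CPM per kb of exon. On this scale *Gpc1* made up 19.8% to 21.6% of the summed glypican level in the vehicle cultures and 50% to 53.4% in the TGF-β1 cultures. *Gpc4* went from 54.2% to 55.5% with vehicle to 36.4% to 38.7% with TGF-β1, and *Gpc3* from 9.08% to 9.59% to 1.37% to 1.62%. The most abundant glypican transcript per length was therefore *Gpc4* with vehicle and *Gpc1* with TGF-β1 in each culture. These shares carry no test. The exons of *Gpc1* lie opposite those of *Ankmy1* over 18.9% of their length, and the strand setting of the counting is not given in the sources used here.

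**Figure D2:**
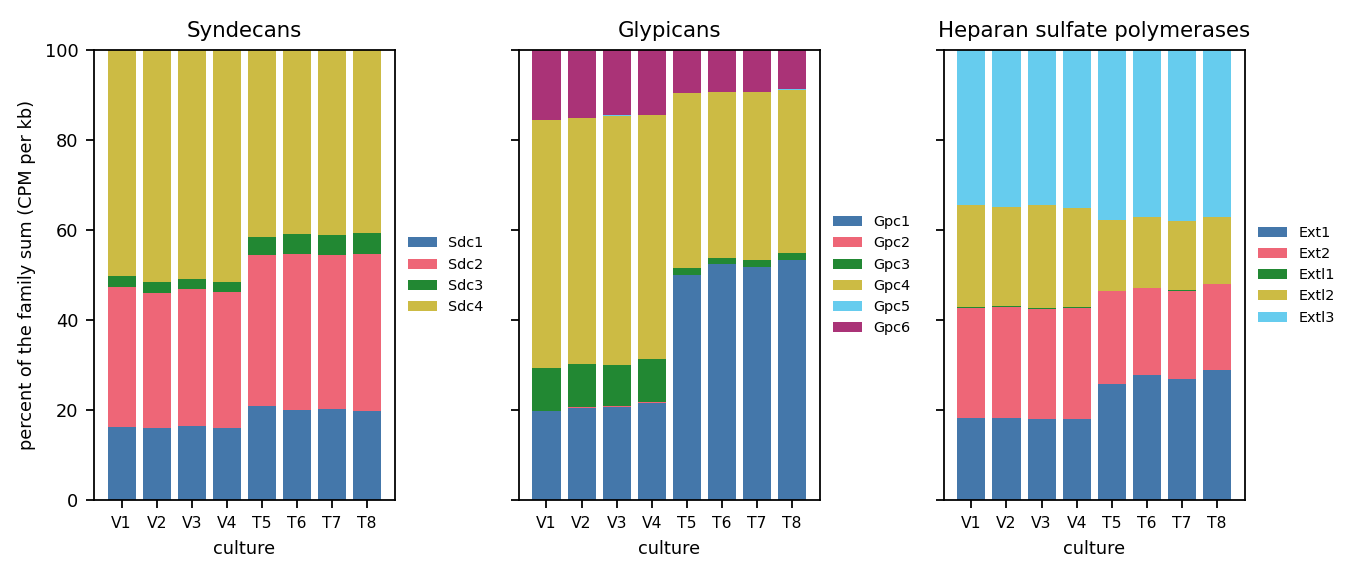
Share of each member in the summed level of its family, in percent of CPM per kb of exon, for syndecans, glypicans and heparan sulfate polymerases in the 4 vehicle cultures (V1 to V4) and the 4 TGF-β1 cultures (T5 to T8). Gpc1 fills 19.8% to 21.6% of the glypican bar with vehicle and 50% to 53.4% with TGF-β1, Sdc4 shrinks from 50.1% to 51.5% to 40.7% to 41.5%, and Ext1 grows from 18.1% to 18.3% to 25.8% to 28.9%.

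The sequence around the annotated start sites was read to show what the members share there. RefSeq windows (GRCm38.p6, 250 bases before to 50 after the annotated start, 5′ to 3′ on the gene's strand) were matched for 43 of the 57 members. They are printed for the neighbours *Gpc3* and *Gpc4*, which fell by unequal amounts, and for *Sdc3* and *Chst11*, with rises of 2.03-fold and 1.98-fold. Capitals mark CAGAC on either strand (read as CAGAC or GTCTG), the short word bound by SMAD proteins downstream of TGF-β receptors.
Gpc3, chrX:52613925-52614224, minus strand: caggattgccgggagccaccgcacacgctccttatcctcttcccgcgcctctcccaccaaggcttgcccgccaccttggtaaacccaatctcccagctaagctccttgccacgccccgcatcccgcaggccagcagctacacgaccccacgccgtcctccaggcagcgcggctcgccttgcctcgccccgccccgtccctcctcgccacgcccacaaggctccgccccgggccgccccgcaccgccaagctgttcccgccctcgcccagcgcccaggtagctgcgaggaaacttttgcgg
Gpc4, chrX:52164874-52165173, minus strand: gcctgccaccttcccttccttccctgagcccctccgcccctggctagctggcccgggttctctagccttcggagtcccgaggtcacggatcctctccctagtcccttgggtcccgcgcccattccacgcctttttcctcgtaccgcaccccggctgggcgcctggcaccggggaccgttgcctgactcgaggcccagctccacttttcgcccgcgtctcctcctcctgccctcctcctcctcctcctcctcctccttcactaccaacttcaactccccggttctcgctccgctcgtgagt
Sdc3, chr4:130792287-130792586, plus strand: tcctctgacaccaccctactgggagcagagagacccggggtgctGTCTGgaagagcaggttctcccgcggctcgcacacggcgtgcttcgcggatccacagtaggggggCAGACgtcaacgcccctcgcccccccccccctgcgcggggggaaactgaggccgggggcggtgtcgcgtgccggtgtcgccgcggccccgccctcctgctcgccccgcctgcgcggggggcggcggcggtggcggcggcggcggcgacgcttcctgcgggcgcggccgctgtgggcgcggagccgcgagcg
Chst11, chr10:82985247-82985546, plus strand: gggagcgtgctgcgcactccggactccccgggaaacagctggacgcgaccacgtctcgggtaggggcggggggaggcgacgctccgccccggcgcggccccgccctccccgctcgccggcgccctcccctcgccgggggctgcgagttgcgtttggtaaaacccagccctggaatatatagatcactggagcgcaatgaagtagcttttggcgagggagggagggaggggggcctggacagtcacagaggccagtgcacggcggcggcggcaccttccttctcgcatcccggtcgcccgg

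Of these windows only that of *Sdc3* holds CAGAC, at 2 places. Among the 11 members called with a log2 fold change of at least 0.5 in size and a mean of at least 1 CPM, 6 had windows. *Gpc1*, *Sulf1*, *Ext1*, *Xylt1* and *Chsy3* had none. Of the 7 windows of those 6 members, 1 holds CAGAC. A word this short is common, as 49.6% of the 32851 windows in the table hold it and 24 of the members' 50 windows (48%) do. TGANTCA, a looser form of the AP-1 motif TGA(C/G)TCA with any base in the middle, occurred in 7.81% of all windows and in 2 of the members' windows. All 4 printed windows are rich in CpG, with 22 CpG for *Gpc4*, 30 for *Gpc3*, 34 for *Chst11* and 44 for *Sdc3*. The members' windows held a median of 22 CpG and all windows, noncoding genes included, a median of 7. A match is a description of letters and no sign of binding.

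Syndecans are the transmembrane heparan sulfate core proteins, and all 4 were called. *Sdc3* (ENSMUSG00000025743, chromosome 4, 130792537 to 130826319), best known from neural tissue, was at 35.5, 34.8, 33.4 and 35.2 CPM with vehicle and at 64.5, 74.7, 71.2 and 72.2 CPM with TGF-β1. The rise was 2.03-fold, without overlap between the groups (log2 fold change 1.02, SE 0.04, edgeR adjusted p = 2.56e-25). *Sdc1* rose from 148 ± 5.79 to 206 ± 5.82 CPM (SD, n = 4, log2 fold change 0.48), and *Sdc2* from 257 ± 7.07 to 324 ± 8.39 CPM (log2 fold change 0.33).

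*Sdc4*, a syndecan of focal adhesions, was the one that fell and the one with the highest level per exon length. It was at 296, 308, 317 and 325 CPM with vehicle and at 281, 284, 279 and 272 CPM with TGF-β1. The lowest vehicle culture and the highest treated culture were close, and the log2 fold change was -0.16 (SE 0.03, edgeR adjusted p = 1.47e-06). As a share of the summed syndecan level per kb of exon, *Sdc4* held 50.1% to 51.5% with vehicle and 40.7% to 41.5% with TGF-β1. *Sdc3* stayed the smallest part, at 2.28% to 2.56% and 4.05% to 4.58%.

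**Figure D3:**
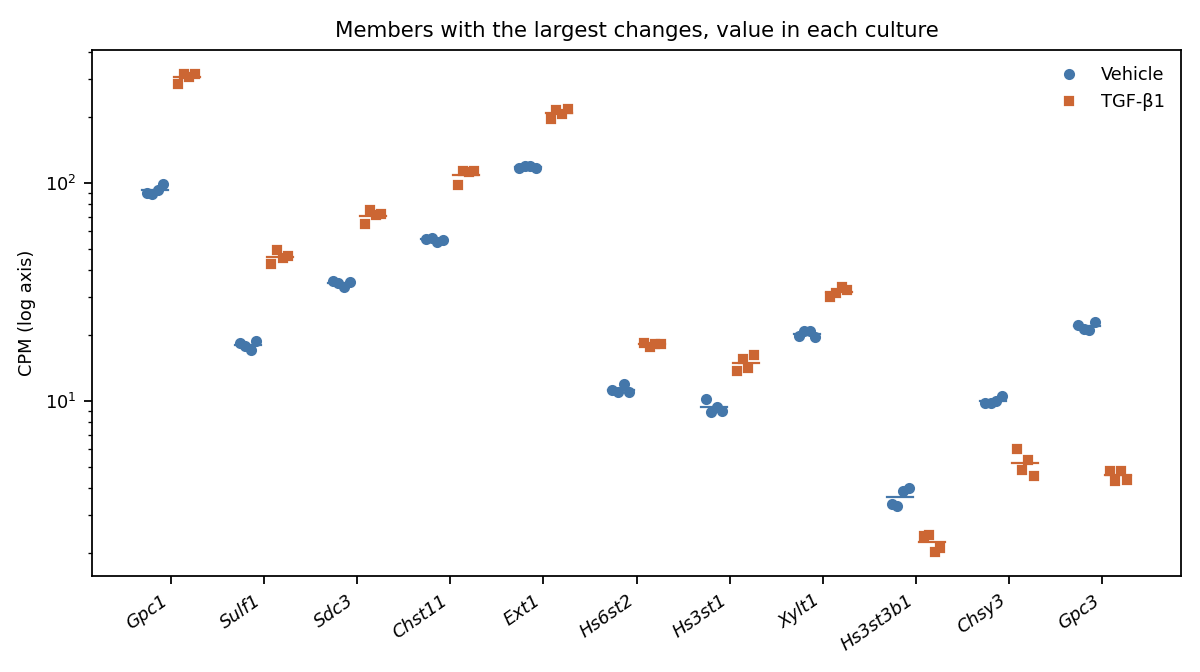
CPM in each culture (log axis) for the 11 members with an adjusted p under 0.05, a log2 fold change of at least 0.5 in size and a mean of at least 1 CPM, ordered by fold change. Circles are vehicle cultures, squares TGF-β1 cultures and short lines the group means, and in each of the 11 members the groups do not overlap.

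The linker is begun by the xylosyltransferases and finished by the glucuronyltransferase *B3gat3*. *Xylt1* (ENSMUSG00000030657, chromosome 7, 117380979 to 117673580) was at 19.9, 21.0, 20.9 and 19.7 CPM with vehicle and at 30.1, 31.2, 33.3 and 32.2 CPM with TGF-β1. This separated the groups, with a log2 fold change of 0.64 (SE 0.05, edgeR adjusted p = 1.06e-15). Its paralog *Xylt2* was not called, at 28.2 ± 1.97 and 29.7 ± 1.48 CPM (SD, n = 4), with a 95% interval of the log2 fold change from -0.02 to 0.17. *B3gat3*, the most abundant of these per length, fell slightly from 42.2, 41.7, 45.7 and 44.2 CPM to 39.5, 38.7, 38.4 and 36.5 CPM (log2 fold change -0.18, edgeR adjusted p = 0.000124).

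Chain growth of heparan sulfate is carried out by a complex of *Ext1* and *Ext2*, and *Extl3* adds the sugar that commits a linker to heparan sulfate. *Ext1* (ENSMUSG00000061731, chromosome 15, 53064038 to 53346159) was at 117, 119.5, 119.6 and 117 CPM with vehicle and at 196, 216, 206 and 218 CPM with TGF-β1. It rose 1.76-fold, with all treated cultures above all vehicle cultures (log2 fold change 0.82, SE 0.03, edgeR adjusted p = 5.86e-27). Its partner *Ext2* did not rise and was slightly lower, at 145 ± 1.67 and 136 ± 5.22 CPM (SD, n = 4, log2 fold change -0.09, edgeR adjusted p = 0.00382). That call was lost without TGF-β1 replicate 8 (adjusted p = 0.0597).

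Per kb of the exon union, *Extl3* was the polymerase gene with the highest level. This rank depends on the length used. *Ext2* has an exon union of 7328 bases but a longest transcript of 3721, against 6063 and 6013 for *Extl3*. The values of *Extl3* were 166, 171, 171 and 169.9 CPM with vehicle and 216, 214, 218 and 209 CPM with TGF-β1. The groups were separated (log2 fold change 0.34, SE 0.02, edgeR adjusted p = 4.46e-16). *Extl2*, whose product can end a chain at the linker, fell from 62.5 ± 1.29 to 50.2 ± 1.75 CPM (SD, n = 4, log2 fold change -0.32). *Extl1*, at 14 to 32 counts per culture, was not called (0.583 ± 0.0836 and 0.364 ± 0.121 CPM, edgeR adjusted p = 0.0785), but passed the threshold without TGF-β1 replicate 7 (adjusted p = 0.0254). Within this family *Ext1* went from 18.1% to 18.3% of the summed level per kb with vehicle to 25.8% to 28.9% with TGF-β1, and *Ext2* from 24.5% to 24.6% to 19.1% to 20.6%.

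Sulfation of heparan sulfate starts with the N-deacetylase/N-sulfotransferases, which replace acetyl by sulfate on glucosamine and so open the chain to the later enzymes. Of the 4 genes, 3 rose and *Ndst4*, at 10 to 24 counts per culture, was not called. *Ndst1* (ENSMUSG00000054008, chromosome 18), the main one by level, was at 157, 155, 149.7 and 152 CPM with vehicle and 203, 200.5, 204 and 206 CPM with TGF-β1. Its groups lay well apart relative to their spread (log2 fold change 0.41, SE 0.02, edgeR adjusted p = 2.33e-18). *Ndst2* rose from 57.3 ± 1.63 to 67.3 ± 1.39 CPM (SD, n = 4), and the low *Ndst3* from 1.91 ± 0.279 to 2.61 ± 0.283 CPM (log2 fold change 0.45, edgeR adjusted p = 0.0100).

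All 3 tested genes for 2-O and 6-O sulfation of heparan sulfate rose as well. *Hs6st2* (ENSMUSG00000062184, chromosome X, 51387212 to 51681856), a 6-O-sulfotransferase, was at 11.2, 10.99, 11.97 and 10.96 CPM with vehicle and at 18.5, 17.7, 18.2 and 18.3 CPM with TGF-β1. The rise separated the groups (log2 fold change 0.69, SE 0.06, edgeR adjusted p = 1.13e-13). It lies on the X chromosome 371.2 kb from *Gpc4* and 590.6 kb from *Gpc3*, so that a rise, a small fall and a large fall were found within one stretch. *Hs2st1*, which sulfates iduronic acid, was at 114, 113, 118 and 110.2 CPM with vehicle and 137, 140.0, 133 and 139.6 CPM with TGF-β1 (log2 fold change 0.27, edgeR adjusted p = 1.26e-11). *Hs6st1* rose from 42.0 ± 0.889 to 46.6 ± 3.10 CPM (SD, n = 4, log2 fold change 0.15), and *Hs6st3* was too low to be tested.

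The 3-O-sulfotransferases add the rarest sulfate and split into a rise and a fall. *Hs3st1* (ENSMUSG00000051022, chromosome 5, 39613935 to 39755475), the enzyme for the antithrombin-binding site of heparan sulfate, was at 10.2, 8.93, 9.43 and 9.01 CPM with vehicle and at 13.7, 15.6, 14.2 and 16.2 CPM with TGF-β1. It rose in every treated culture (log2 fold change 0.67, SE 0.07, edgeR adjusted p = 2.67e-11). *Hs3st3b1* (ENSMUSG00000070407, chromosome 11, 63885792 to 63922290) was at 3.38, 3.31, 3.85 and 3.99 CPM with vehicle and at 2.40, 2.44, 2.03 and 2.11 CPM with TGF-β1. This fall also left no overlap (log2 fold change -0.70, SE 0.13, edgeR adjusted p = 1.41e-05). Its neighbour *Hs3st3a1*, 513.0 kb away, was at 0.657 ± 0.218 and 0.689 ± 0.0715 CPM (SD, n = 4) and was not called, nor were *Hs3st5* and *Hs3st6*. Of the exon length of *Hs3st3a1*, 32.9% lies opposite another gene. *Hs3st2* and *Hs3st4* were near 0. Per kb of exon, *Hs3st1* made up 70.3% to 76.7% of the 3-O family with vehicle and 82.3% to 86.5% with TGF-β1.

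The endosulfatases *Sulf1* and *Sulf2* act outside the cell, where they remove 6-O-sulfate from finished heparan sulfate, and they moved in opposite directions. *Sulf1* (ENSMUSG00000016918, chromosome 1, 12692277 to 12861192) was at 18.4, 17.8, 17.1 and 18.9 CPM with vehicle and at 42.4, 49.0, 45.4 and 46.2 CPM with TGF-β1. This 2.53-fold rise was the second largest among the called members (log2 fold change 1.34, SE 0.05, edgeR adjusted p = 5.84e-27). *Sulf2* (ENSMUSG00000006800, chromosome 2, 166073089 to 166155663) was at 425, 417, 411 and 410.3 CPM with vehicle and at 348, 340.5, 354 and 336 CPM with TGF-β1. It fell in all treated cultures (log2 fold change -0.27, SE 0.02, edgeR adjusted p = 1.39e-13). *Sulf2* stayed the far more abundant transcript, since *Sulf1* held 2.12% to 2.34% of their summed level per kb with vehicle and 5.95% to 6.96% with TGF-β1.

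**Figure D4:**
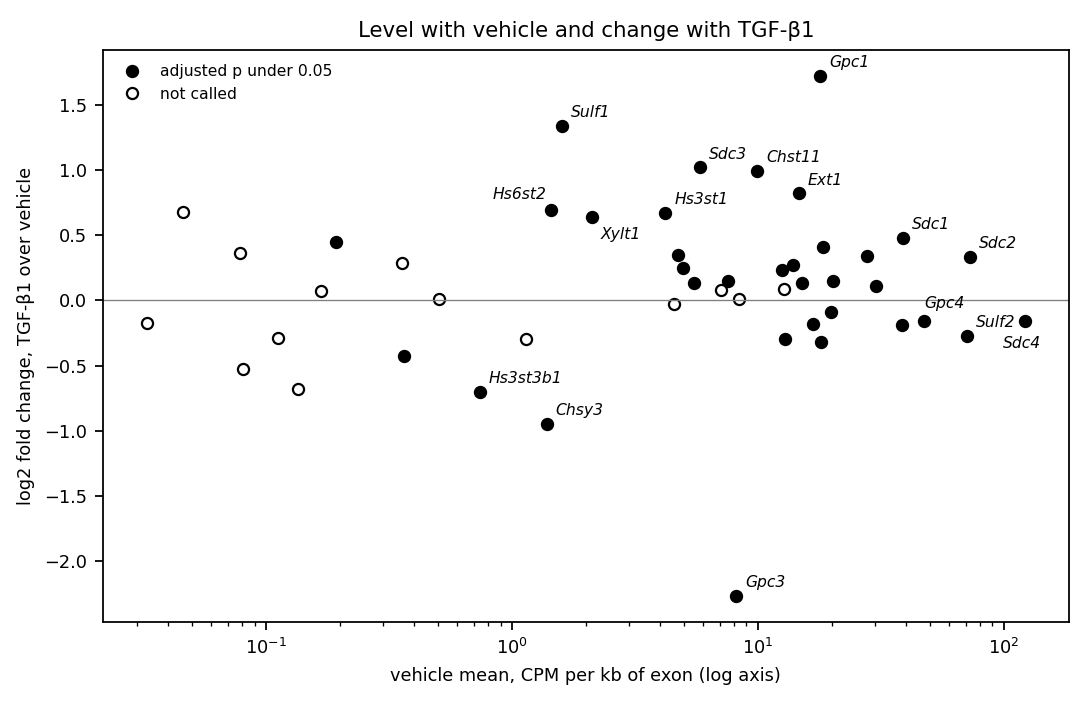
Log2 fold change (TGF-β1 over vehicle) of the 48 members tested against their mean level with vehicle in CPM per kb of exon (log axis). Filled points had an adjusted p under 0.05. The most abundant members per length, Sdc4, Sdc2, Sulf2 and Gpc4, lie between -0.27 and 0.33, whereas Gpc1 and Gpc3 start from 18.0 and 8.16 CPM per kb.

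On the chondroitin sulfate side, the genes for chain synthesis changed little, with the exception of *Chsy3*. *Chsy3* (ENSMUSG00000058152, chromosome 18, 59175401 to 59535999), one of the chondroitin synthases, was at 9.83, 9.83, 9.97 and 10.5 CPM with vehicle and at 6.00, 4.83, 5.35 and 4.53 CPM with TGF-β1. Its level fell 1.94-fold with no overlap (log2 fold change -0.95, SE 0.08, edgeR adjusted p = 4.19e-13). The synthase *Chsy1*, at 20.2 CPM per kb with vehicle against 1.39 CPM per kb for *Chsy3*, rose from 84.3 ± 2.27 to 93.6 ± 1.81 CPM (SD, n = 4, log2 fold change 0.15). *Chpf*, a polymerizing factor and the most abundant of the 6 per length, was at 144, 150.0, 149 and 152 CPM with vehicle and 135, 130.2, 131 and 127 CPM with TGF-β1 (log2 fold change -0.19, edgeR adjusted p = 9.86e-08).

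*Chpf2* rose by 0.13 on the log2 scale, and 44.1% of its exon length lies opposite *Smarcd3*. *Csgalnact1* and *Csgalnact2*, which add the sugar that commits a linker to chondroitin sulfate, were not called. Their 95% intervals ran from -0.13 to 0.07 and from -0.07 to 0.08 on the log2 scale, and both intervals leave out the 0.34 of *Extl3*, which does the same for heparan sulfate.

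Among the tested genes for 4-O sulfation, the largest change in RNA was in *Chst11* (ENSMUSG00000034612, chromosome 10, 82985498 to 83195900), a chondroitin 4-O-sulfotransferase. It was at 55.5, 56.2, 53.6 and 55.0 CPM with vehicle and at 97.8, 113, 112 and 113 CPM with TGF-β1. The rise was 1.98-fold, with TGF-β1 replicate 5 below the other treated cultures but far above all vehicle cultures (log2 fold change 0.99, SE 0.04, edgeR adjusted p = 8.77e-20). *Chst12*, with the same activity and the highest level per length of the family, was at 74.3, 68.6, 69.3 and 72.6 CPM with vehicle and 77.0, 78.6, 75.5 and 76.4 CPM with TGF-β1 (log2 fold change 0.11, edgeR adjusted p = 0.00337). *Chst14*, the dermatan 4-O-sulfotransferase, was not called (26.7 ± 1.13 and 28.4 ± 0.859 CPM, SD, n = 4), and *Chst13* was too low to be tested. *Chst11* made up 18.3% to 19.6% of the family per kb with vehicle and 27.4% to 31.0% with TGF-β1.

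Of the 6-O genes, *Chst15*, which adds a further sulfate to 4-sulfated chondroitin, was at 34.5, 32.5, 33.4 and 33.7 CPM with vehicle and 37.4, 41.8, 38.7 and 41.2 CPM with TGF-β1. The groups did not overlap (log2 fold change 0.25, SE 0.04, edgeR adjusted p = 2.18e-06), while 17.9% of its exon length lies opposite another gene. *Chst3*, the main chondroitin 6-O-sulfotransferase of cartilage, was at 13 to 40 counts per culture and was not called. *Chst7* was not called either, at 2.52 ± 0.376 and 2.04 ± 0.133 CPM (SD, n = 4, adjusted p = 0.0863), but passed the threshold without vehicle replicate 3 (edgeR adjusted p = 0.0326).

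The remaining members act mainly on other sugars. *Chst1*, which sulfates keratan sulfate, rose from 12.8 ± 0.637 to 16.3 ± 0.761 CPM (SD, n = 4, log2 fold change 0.35). *Chst2*, a sulfotransferase for N-acetylglucosamine, was at 40.3, 39.5, 41.8 and 39.9 CPM with vehicle and 42.7, 43.8, 44.3 and 45.6 CPM with TGF-β1 (log2 fold change 0.13, edgeR adjusted p = 0.00388). *Chst10*, which completes the HNK-1 epitope of neural glycoproteins, fell from 4.37 ± 0.538 to 3.24 ± 0.361 CPM (log2 fold change -0.43, edgeR adjusted p = 0.00228). *B3gat2*, a glucuronyltransferase for the same epitope, was at 2.45, 1.89, 2.55 and 1.97 CPM with vehicle and 2.33, 2.61, 3.21 and 2.702 CPM with TGF-β1. It was not called (edgeR adjusted p = 0.0973, exact two-sided permutation p = 0.114), and 33.5% of its exon length lies opposite *Smap1*. The untested *B3gat1*, *Chst4*, *Chst5*, *Chst8* and *Chst9* were near 0 in both groups.

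With 4 cultures against 4, an exact two-sided permutation test gives 0.0286 for any gene whose groups do not overlap, the smallest p the design allows. For 22 of the 23 members given here for every culture it therefore only restates the separation.

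The rest of the pathway was read from lists of 47 genes that the symbol rule does not cover, of which 42 were tested, with 17 higher, 8 lower and a median log2 fold change of 0.05. The called share, 59.5% at any level, stands beside the 41.3% of all genes tested and the 51.1% of genes at 1 CPM or more. In the donor supply, *Ugdh*, which makes the UDP-glucuronic acid used in every chain, rose from 96.7 ± 4.13 to 145 ± 2.17 CPM (SD, n = 4, log2 fold change 0.58, edgeR adjusted p = 1.12e-21). *Papss2*, which makes the sulfate donor PAPS, rose from 14.4 ± 0.434 to 28.5 ± 0.653 CPM (log2 fold change 0.98, edgeR adjusted p = 4.10e-21). Its paralog *Papss1*, at 59.0 ± 1.86 and 56.6 ± 1.43 CPM, was not called (log2 fold change -0.06, edgeR adjusted p = 0.14). Per kb of exon *Papss1* was the more abundant, at 19.3 and 18.5 CPM with vehicle and TGF-β1 against 3.87 and 7.65 CPM for *Papss2*. Of these 12 supply genes, 5 rose and 1 fell.

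Linker and modifying enzymes outside the rule rose in 5 of 8 cases and fell in none, the largest being *Ust*, the uronyl 2-O-sulfotransferase of chondroitin and dermatan sulfate (log2 fold change 0.65, SE 0.05, edgeR adjusted p = 5.66e-14). Among 15 further core proteins 4 rose and 3 fell. *Cspg4*, which encodes the pericyte proteoglycan NG2 and is also on the marker list, rose from 82.9 ± 2.50 to 169 ± 5.62 CPM (SD, n = 4, log2 fold change 1.03), and *Vcan*, a large chondroitin sulfate proteoglycan of the matrix, from 342 ± 3.20 to 632 ± 17.1 CPM (log2 fold change 0.89). *Spock2*, a secreted proteoglycan of the testican family, fell from 10.3 ± 0.5 to 6.88 ± 0.687 CPM (log2 fold change -0.58, edgeR adjusted p = 2.63e-08). Its relative *Spock3*, at 12 to 64 counts per culture, rose from 0.307 ± 0.0527 to 1.04 ± 0.254 CPM (log2 fold change 1.76, edgeR adjusted p = 7.51e-07). *Col18a1*, a heparan sulfate proteoglycan of basement membranes, fell from 571 ± 9.25 to 389 ± 9.33 CPM (log2 fold change -0.55, edgeR adjusted p = 3.15e-24). On the same list *Hspg2* was higher, at 1430 ± 63.3 and 1558 ± 66.8 CPM with overlapping groups (log2 fold change 0.12, edgeR adjusted p = 0.00484). *Agrn*, at 534.5 ± 8.7 and 515.9 ± 20.8 CPM, was not called. Of 12 genes for shedding and breakdown, 3 rose and 4 fell, and none reached 0.5 in size on the log2 scale.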

How the data were processed

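RNA was sequenced from 8 cultures with a stranded total RNA kit. Per the labels and the paper's methods, the authors used STAR 2.7.5c for alignment to mm10, SAMtools 1.15 to drop PCR duplicates and featureCounts 2.0.3 for gene counts, and the deposited values are raw counts, 45255235 to 47651397 per culture. The strand setting and annotation release of the counting are not given in the sources used here. Identifiers were matched to GENCODE M21 (GRCm38), which gave a symbol and position for 54495 of 54532. Counts were fitted over all genes that passed filterByExpr (22544) with edgeR 4.0.16 in R 4.3.3 (TMM scaling, robust quasi-likelihood test, Benjamini-Hochberg adjustment, threshold 0.05), after a test on simulated counts. Errors beside means are SDs over 4 cultures. Exon length is the union of annotated exons. Permutation tests used log2(CPM + 0.05).

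The members and lists were chosen with earlier results of these data known. Values are printed for every culture for members called with a log2 fold change of at least 0.5 in size and a mean of at least 1 CPM, and for the member with the highest CPM per kb in each role; of other pathway genes at most 3 per list are named. *Spock3*, *Col18a1*, *Hspg2*, *Agrn*, *Papss1*, *Gpc5* and marker genes named with values or as near 0 were chosen after their values were seen. Alternatives were DESeq2 1.42.0, other scalings, other count filters, counts divided by 2, another exon length and each culture left out. Of counts from 1 to 20, 68.5% to 70.2% per culture were even. Division by 2 gives counts per fragment if both reads of a pair were counted. The sources used here do not state this, and it was not tested. If so, the low counts given above stand for fewer fragments. Chi-square per degree of freedom between cultures of a group was 2.25 to 3.92 on the counts as deposited and 1.12 to 1.96 on counts divided by 2, lowest for vehicle replicates 3 and 4, and no culture was counted as a duplicate. The SE of a fold change is the size of the log2 fold change divided by the square root of edgeR's F statistic. Intervals take a normal quantile of this SE and include the spread between cultures, but can be too narrow at few degrees of freedom. The CPM worth of 3 counts converts a fixed count and measures no error.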

Additional observations from a re-analysis of the deposited data

Results flagged for a closer look

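Of 96 groups of 4 values examined, 6 held a culture that stood apart from the other 3 by Dixon's criterion, where chance gives about 1 in 20 groups (4.8). *Chst11* was at 97.8 CPM in TGF-β1 replicate 5, with the nearest treated culture at 112 CPM. For *Gpc4*, vehicle replicate 2 was at 121 CPM and the nearest at 128 CPM. *Extl3* was at 166 CPM in vehicle replicate 1, with the nearest at 169.9 CPM. In TGF-β1 replicate 7, *Chst10* was at 3.78 CPM and the nearest at 3.11 CPM. *Extl1* was at 0.546 CPM in the same culture, with the nearest at 0.306 CPM. *Hs3st5* was at 0.433 CPM in vehicle replicate 4, with the nearest at 0.499 CPM.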

How the results depend on the processing

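Across the 7 alternatives of tool, scaling, filter and counting and the 8 fits without 1 culture, 33 to 35 members were called against 34, with 22 higher in each and 11 to 13 lower, and 24 to 27 other pathway genes against 25. Every called member kept its direction and its call, except *Ext2*, which lost its call without TGF-β1 replicate 8 (log2 fold change -0.07, adjusted p = 0.0597 in edgeR). Calls were gained by *Chst7* without vehicle replicate 3 (-0.39) and by *Extl1* with at least 10 counts in every culture (-0.68, adjusted p = 0.0436) and without TGF-β1 replicate 7 (-0.94). Signs turned only in members that were not called. With library totals as scaling, *Csgalnact2* had a log2 fold change of -0.0043 and *Hs3st6* of -0.0039. Leaving out 1 culture gave -0.08 to 0.01 for *Csgalnact1*, -0.01 to 0.03 for *Csgalnact2*, -0.14 to 0.22 for *Hs3st3a1*, -0.15 to 0.13 for *Hs3st6* and -0.45 to 0.01 for *Ndst4*. The cause was not tested. With the length of the longest transcript in place of the exon union, the difference in family share moved from -7.93 to -8.40 points for *Gpc3*, -17.6 to -16.0 for *Gpc4*, -5.68 to -7.91 for *Gpc6*, 1.99 to 2.23 for *Sdc3*, 4.25 to 6.37 for *Sulf1* and 4.73 to 3.74 for *Xylt1*. No paired analysis was possible because the vehicle cultures are numbered 1 to 4 and the TGF-β1 cultures 5 to 8, with no number in common. Of the 8 members tested with a mean under 1 CPM, 0 were called in edgeR and 0 in DESeq2, 1 (*Extl1*) had an unadjusted p under 0.05 in edgeR, and the part of depth in this was not tested.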
